A study of Mus musculus with 18 samples.

Results

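Macrophages of mouse hearts that had received a short hairpin RNA against Jun (shJun) were compared with those of hearts that had received a non-targeting hairpin (shNT). A well of the nanowell chips counted as a macrophage well when it held at least 500 genes, when the summed UMIs of C1qa, C1qb, C1qc, Lyz2, Tyrobp and Fcer1g were larger than those of the endothelial genes Pecam1, Kdr, Egfl7, Esam, Cdh5 and Fabp4 and of the fibroblast genes Col1a1, Col3a1, Col1a2, Dcn, Pdgfra and Lum, and when they made up at least 0.3% of the UMIs of the well. A UMI, or unique molecular identifier, stands for 1 captured molecule. Of the 7382 wells of the knockdown experiment with at least 500 genes, 335 met the rule, among 23483 cell wells in the whole series. They were 58 wells of shJun animal 1, 93 of shJun animal 2, 74 of shNT animal 1 and 110 of shNT animal 2.

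All 4 animals were P28 mice of the Myh6/Esr1-Tomato strain, in which a Cre under the cardiomyocyte promoter Myh6, once switched on by tamoxifen, turns on a red reporter in cardiomyocytes (CMs). The methods describe tamoxifen given to the mothers after delivery for labelling of this strain and do not state it separately for the knockdown hearts. Lentivirus with either hairpin was injected into the left ventricle at P1. Hearts were digested by Langendorff perfusion, centrifugation separated CMs from non-cardiomyocytes (NCMs), and both fractions were dispensed on ICELL8 chips, where polyadenylated RNA was counted. The fractions were loaded on 4 CM chips and 2 NCM chips, each of which held cells of 1 shJun and 1 shNT animal. Animals with the same number shared their chips. The sources used here do not say which wells held cells with virus.

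Macrophages of the heart include long-lived resident cells, many of which derive from embryonic progenitors and carry Timd4, Lyve1 or Folr2, and cells recruited from blood monocytes, which carry the chemokine receptor Ccr2. They engulf dying cells and debris, present antigen on MHC class II, and send growth factors and chemokines to their neighbours. JUN, the product of the targeted gene, forms the transcription factor AP-1 with FOS and ATF family proteins, and AP-1 takes part in the activation of inflammatory genes in macrophages.

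The summed macrophage wells held 1623823 UMIs in shJun animal 1, 6907300 in shJun animal 2, 3524531 in shNT animal 1 and 5342121 in shNT animal 2, mitochondrial genes left out. Single wells ranged from 683 to 452733 UMIs, and the 5 largest wells of an animal gave between 19.4 and 26.1% of its UMIs. The 335 wells held 328 distinct barcodes, since chips reuse them. The 3 wells just inside the threshold had 0.307, 0.312 and 0.314% of their UMIs in the 6 macrophage genes, and the 3 just outside had 0.297, 0.296 and 0.291%, while the median inside was 0.869% and the largest value 11.3%. In a further 253 wells the macrophage genes led but stayed under the threshold. The wells were thus chosen by measured values, the UMIs of these 6 genes and of the 12 endothelial and fibroblast genes, and none of the 18 was read as a test. Among them Lyz2, the lysozyme of myeloid cells, stood at 4416 and 6011 CPM, counts scaled to the same UMI total for every sum by the trimmed mean of M values (TMM), in shJun 1 and shJun 2 and at 3312 and 7771 CPM in shNT 1 and shNT 2. C1qb, a subunit of complement C1q, stood at 1746 and 4262 against 2279 and 2233 CPM. For both the groups overlapped, as they did for all 6 macrophage genes.

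The label was checked against 16 macrophage identity genes that the rule did not use. Csf1r, the receptor for the growth factor that keeps macrophages alive, stood at 931 and 717 CPM, here without TMM scaling, in the shJun macrophage wells and at 611 and 612 CPM in the shNT wells, while endothelial and fibroblast wells of the same animals held between 34.0 and 176 CPM. In sums over both fractions, each of the 16 genes was higher in macrophage wells than in both other classes in all 4 animals. The median was 16.4 times over the higher of those classes, from 1.59 times for Mertk to 40.5 times for Cd14. Macrophage wells of the CM fraction numbered 9, 36, 13 and 29 in shJun 1, shJun 2, shNT 1 and shNT 2. On the CM chips Csf1r ran from 47.7 to 668 CPM. Its low values there, 47.7, 59.8 and 139 CPM, lay within the range of the other classes. The label was not checked for the CM fraction alone.

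Some animals stood apart. The median share of mitochondrial UMIs per macrophage well is often read as a sign of RNA quality. It was 28.2, 23.8, 48.0 and 29.3% in shJun 1, shJun 2, shNT 1 and shNT 2, so shNT 1 lay above the other 3. The same animal held the most cardiomyocyte RNA in NCM macrophage wells, at 2.46% of UMIs. The part of that RNA in its mitochondrial share was not tested. Xist, the RNA of the inactive X chromosome, had 803 UMIs in the wells of shJun animal 1 and 0, 7 and 0 in shJun 2, shNT 1 and shNT 2. Ddx3y, on the Y chromosome, had 5, 865, 211 and 375 UMIs, so shJun animal 1 was the Xist-high animal and the other 3 were the Ddx3y-high ones. The 7 Xist UMIs of shNT 1 and the 5 Ddx3y UMIs of shJun 1, which shared chips, lay in different wells with 1 UMI each. The part of sex and of RNA quality in the results below was not tested.

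RNA of other cells was present in the macrophage wells. The 10 cardiomyocyte genes took 0.405, 0.362, 2.46 and 0.336% of the UMIs of NCM macrophage wells in shJun 1, shJun 2, shNT 1 and shNT 2. In CM macrophage wells they took 12.8, 13.1, 15.7 and 13.7%. They exceeded 10% of UMIs in 8 of 9, 30 of 36, 13 of 13 and 21 of 29 of these wells. The rule compared no cardiomyocyte genes, so wells of cardiomyocytes with some macrophage RNA could meet it. Whether the CM wells held macrophages, cardiomyocytes or both was not tested. In the CM fraction all 4 animals were at a like level, and in the NCM fraction shNT 1 was above the other 3. The 4 globin genes of red blood cells took 7.78, 1.44, 4.2 and 15.1% over both fractions, lowest in shJun 2 and highest in shNT 2, with the groups overlapping. The 7 neutrophil genes took 0.0213, 0.00526, 0.161 and 0.00477%, with 3, 1, 1 and 1 of them at 0, and the highest value was that of shNT 1. The 4 NK cell genes had 4, 2339, 0 and 1342 UMIs, most of them in the animals numbered 2. The 5 T cell genes had 4, 3223, 3 and 75, most of them in shJun 2. In shJun 2, 1 well gave 98.3% of the NK cell UMIs and 1 well 81.5% of the T cell UMIs. In shNT 2, 1 well gave 88.2% of the NK cell UMIs. The 5 dendritic cell genes had 130, 392, 28 and 203 UMIs, the 4 B cell genes 464, 456, 376 and 1280, and the 5 mural cell genes 653, 8381, 1535 and 2939. The 6 fibroblast genes of the rule took 0.391, 0.128, 0.153 and 0.134% of UMIs, and the 6 endothelial genes 0.286, 0.161, 0.194 and 0.186%. Both were highest in shJun 1, where Dcn, a matrix proteoglycan, stood at 1949 CPM against 729, 751 and 755 in the other 3. The part of this RNA in the differences below was not tested.

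**Figure D1:**
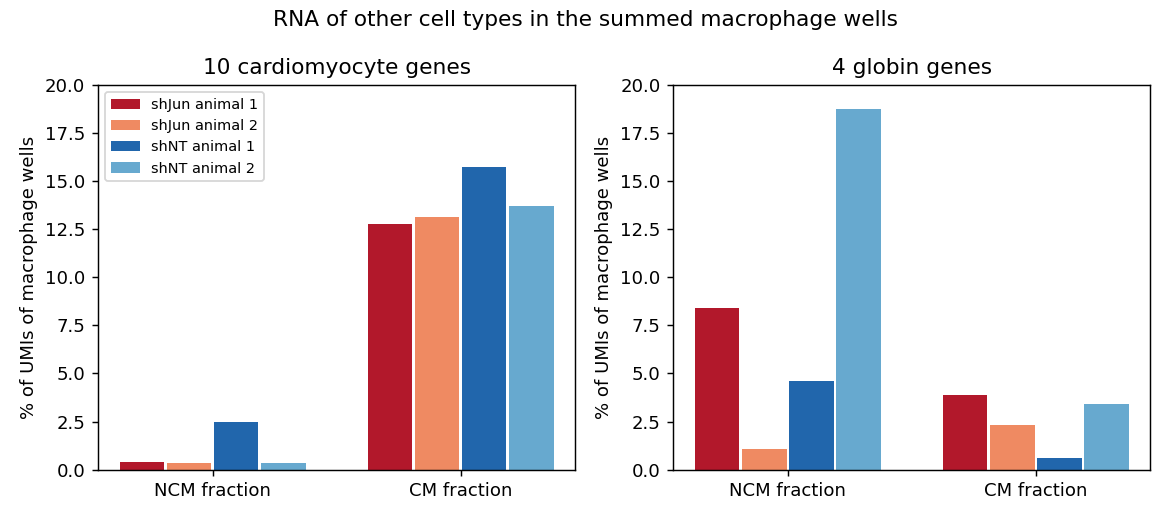
Share of the UMIs of macrophage wells (%, y axes) that came from 10 cardiomyocyte genes (left) and 4 globin genes (right), with 1 bar per animal for wells of the NCM and CM fractions; bars are sums over wells without error bars. Cardiomyocyte RNA took 12.8 to 15.7% in the CM fraction of all 4 animals, and in the NCM fraction shNT animal 1 stood out at 2.46%.

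The first question was whether the hearts differed in how many macrophages were recovered. Macrophage wells made up 3.43% of the wells with at least 500 genes in shJun animal 1 (exact Clopper-Pearson 95% interval 2.62 to 4.41) and 5.22% in shJun animal 2 (4.24 to 6.36). They made up 4.21% in shNT animal 1 (3.32 to 5.26) and 5.11% in shNT animal 2 (4.22 to 6.12). The intervals cover counting error only. The shJun animals held both the lowest and the highest share, so the groups overlapped. The means were 4.33% ± 1.27 (SD, n = 2) for shJun and 4.66% ± 0.633 (SD, n = 2) for shNT, a difference of -0.332 percentage points (exact permutation test, two-sided, p = 1, where 2 against 2 animals cannot go below 0.33). The sign depended on 1 animal: the difference was 0.563 without shJun animal 1 and 0.115 without shNT animal 2.

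Within the fractions the order differed. In the NCM fraction, where most macrophages were found, the shares were 6.55 and 9.33% in the shJun animals and 8.30 and 11.2% in the shNT animals. The shJun animal was below the shNT animal on both NCM chips, but the groups overlapped (difference -1.80 points, exact permutation p = 0.667). In the CM fraction the shares were 0.955 and 3.08% against 1.27 and 2.03% (difference 0.366 points, exact permutation p = 1). A share of wells reflects loading as well as the number of cells in the heart, and these cannot be told apart. Leaving out wells in which the cardiomyocyte genes exceeded 2% of UMIs changed the denominator too. From 1690, 1781, 1757 and 2154 wells in shJun 1, shJun 2, shNT 1 and shNT 2, 617, 574, 404 and 693 remained. Of these 43, 56, 42 and 77 were macrophage wells. The means of this other share were 8.36% ± 1.97 and 10.8% ± 0.506 (SD, n = 2 each). The groups no longer overlapped (difference -2.39 points), at the smallest p this design allows (exact permutation p = 0.33).

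**Figure D2:**
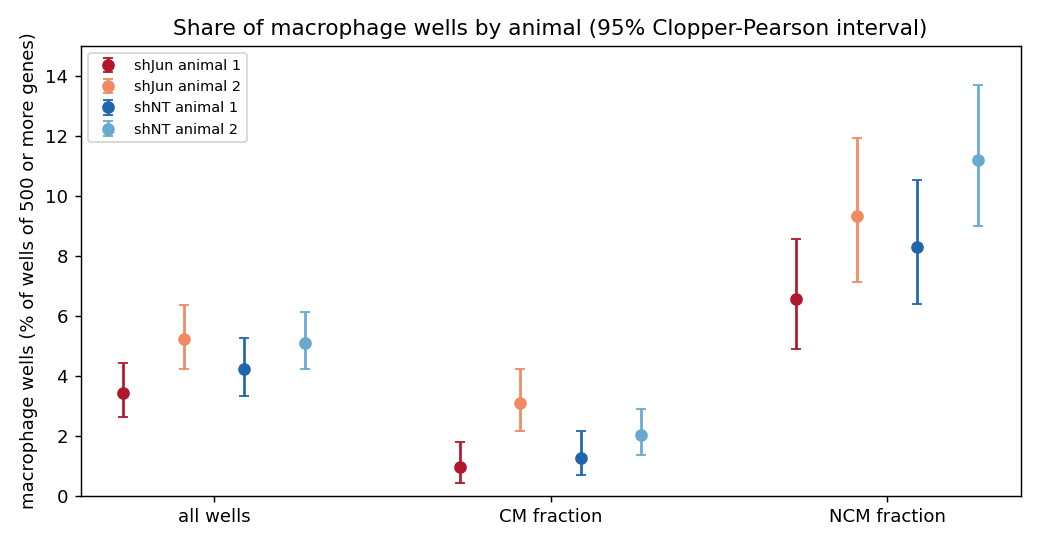
Share of macrophage wells among wells of at least 500 genes (%, y axis) for all wells, the CM fraction and the NCM fraction, 1 point per animal with its exact 95% Clopper-Pearson interval. In the NCM fraction the shNT animals reached 8.30 and 11.2% and the shJun animals 6.55 and 9.33%, with overlapping groups in all 3 sets.

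The targeted gene was read first. Jun lies on mm10 chr4:95049034-95052222, minus strand. Its promoter sequence in RefSeq (GRCm38.p6) is shown because it holds an AP-1 type element, in capitals, that ends 37 bases before the start site; the bases around it are chr4:95052235-95052292, 5′ to 3′ on the minus strand.
Jun: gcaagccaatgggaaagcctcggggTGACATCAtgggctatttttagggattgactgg

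Jun had 293 UMIs in 23 of 58 macrophage wells of shJun animal 1 and 679 UMIs in 34 of 93 wells of shJun animal 2. It had 117 UMIs in 24 of 74 wells of shNT animal 1 and 1803 UMIs in 47 of 110 wells of shNT animal 2. On the scale of the test, TMM-scaled CPM, these sums were 163 and 97.6 against 32.8 and 398. Both shJun animals lay between the 2 shNT animals, so the lowest and the highest level were both in hearts with the non-targeting hairpin. The fitted log2 difference was -0.73 ± 1.04 (SE, edgeR quasi-likelihood test, unadjusted p = 0.502, adjusted p = 0.993 by Benjamini-Hochberg). A knockdown of Jun in macrophages was not detectable at this spread, which does not show that there was none. With the shared chips as a block the log2 difference was 0.13, and without shNT animal 2 it was 2.02, so the sign rested on that animal. In the paper's own comparison of cell types, macrophages among them, only CMs showed effective Jun silencing.

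The chips gave opposite orders. On the NCM chip of the animals numbered 1, Jun stood at 203 CPM (unscaled) in 49 shJun wells and 34.6 CPM in 61 shNT wells. On the NCM chip of the animals numbered 2 it stood at 128 CPM in 57 shJun wells and 399 CPM in 81 shNT wells. The shJun animal was thus the higher on 1 NCM chip and the lower on the other. A single well held between 27.0 and 39.3% of the Jun UMIs of each animal.

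The other cells of the same hearts were read beside the macrophages. In endothelial wells Jun stood at 107 and 176 CPM (unscaled) in the shJun animals and 111 and 79.3 CPM in the shNT animals. In fibroblast wells it stood at 123 and 204 against 120 and 123 CPM. Levels of shJun animals were not below those of shNT animals as a group in either class. The hairpin difference of Jun in macrophages minus that in endothelial wells was -0.72 ± 1.20 on the log2 scale (SE, edgeR, unadjusted p = 0.562), and minus that in fibroblast wells -0.66 ± 1.18 (SE, edgeR, unadjusted p = 0.588), so a difference between the classes was not detectable either.

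**Figure D3:**
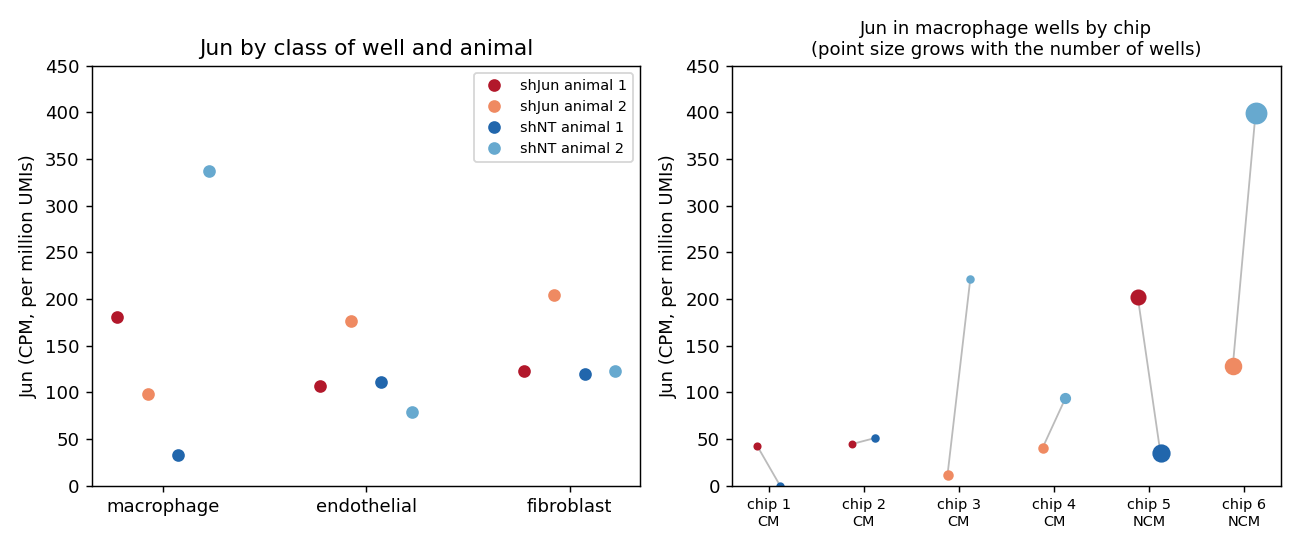
Jun level (CPM without TMM scaling, linear y axes) by class of well and animal (left) and in macrophage wells by chip (right), where grey lines join the 2 animals of a chip and point size grows with the number of wells. In macrophages the shNT animals hold the lowest (33.2 CPM) and the highest (338 CPM) level, and the NCM chips show opposite orders.

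Over all genes, the summed macrophage wells of 2 shJun and 2 shNT animals gave 11954 genes that passed the filter on low counts. In edgeR's quasi-likelihood test 0 genes (0%) passed an adjusted p of 0.05, and the smallest adjusted p was 0.908. At an unadjusted p under 0.05 there were 621 genes (5.19%), 290 higher in shJun (2.43%) and 331 lower (2.77%). The 2 shJun values did not overlap the 2 shNT values in 1880 genes that were higher (15.7%) and 1936 that were lower (16.2%), 31.9% in all. The median log2 difference was -0.01. The common dispersion was 0.712 with 2 residual degrees of freedom.

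Other fits called genes, and the calls differed between them. DESeq2 called 130 genes (1.09%), 61 higher and 69 lower in shJun, and 1191 (9.96%) at an unadjusted p under 0.05. With the shared chips as a block edgeR called 3 genes (0.0251%), Ccl5 higher and Retnlg and Alb lower. Ccl5, a chemokine of T and NK cells, had 115, 14886, 5 and 1026 UMIs in shJun 1, shJun 2, shNT 1 and shNT 2 (log2 difference 4.21 ± 0.76 SE, adjusted p = 0.0392 in the blocked edgeR fit), highest in the animal with the most T and NK cell RNA. In shJun 2, 1 well gave 99.7% of its UMIs. Retnlg, a granule gene of neutrophils, had 1, 0, 1566 and 28 UMIs (adjusted p = 0.0155), highest in the animal with the most neutrophil RNA. Alb, the liver's albumin, had 0, 113, 0 and 6653 UMIs (adjusted p = 0.0498). All 3 are best known from cells other than macrophages. Without shNT animal 1 edgeR called 55 genes, and without shNT animal 2 it called 41, of which 3 were shared, 5.45% of the first set and 7.32% of the second. In these 2 fits the lone shNT animal was assumed to vary like the shJun animals. Among the members of the macrophage and other cell lists, DESeq2 called 5, which were Retnlg, Csf3r and Ngp of the neutrophil list, Gzma of the NK cell list and Cd3d of the T cell list.

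Single wells carried much of these sums. For 9010 of the 11954 genes (75.4%) 1 well gave more than 50% of the UMIs of the gene in at least 1 animal. Among the 621 genes at an unadjusted p under 0.05 it was 590 (95%), and among the 130 DESeq2 calls 129 (99.2%). When wells that held the gene were counted in place of UMIs, after each well was thinned to 5000 UMIs, 2460 genes passed the filter, 0 passed the adjusted threshold in edgeR and 57 (2.32%) had an unadjusted p under 0.05. This count was chosen after the data were seen.

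The 24 genes with the smallest p outside the marker lists, 12 in each direction, show the same make-up. In 18 of them each animal of the higher group had at most 5 wells with 2 or more UMIs, in 23 a single well gave over 50% of the UMIs of an animal of the higher group, and in 15 it gave over 90%. Their adjusted p was 0.908 in edgeR. In 5 the lower group had no UMI (Gpr173, Trpt1, Trim14, Brdt and Siglecg) and in 5 more it had 1 to 3.

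Among those higher in shJun, Col14a1, a collagen of fibril surfaces, was the one found in the most wells. It stood at 174 and 327 TMM-scaled CPM in the shJun animals and 26.1 and 17.7 in the shNT animals (log2 difference 3.52 ± 0.80 SE, edgeR unadjusted p = 0.00203). The groups did not overlap, but 1 well gave 54.6% of its UMIs in shJun 1 and 88.2% in shJun 2, and wells with 2 or more UMIs numbered 10, 15, 11 and 8. The fibroblast genes of the rule took 0.391, 0.128, 0.153 and 0.134% of UMIs in the same order, high in shJun 1 and not in shJun 2, and their part in the Col14a1 difference was not tested. Zfp950, a zinc finger gene, had 411 and 156 against 26.1 and 38.4 CPM (3.13 ± 0.81), with 73.8% of the UMIs of shJun 2 in 1 well. Lpcat1, an enzyme of phospholipid remodelling, had 122 and 370 against 30.5 and 22.5 CPM (3.21 ± 0.85). Nek6, a mitotic kinase, had 65.6 and 113 against 2.52 and 3.09 CPM (4.97 ± 1.11), from 4 wells with 2 or more UMIs in each shJun animal. The other 8 were Crnde, Zscan22, Top3a, Gpr173, Adam33, Trpt1, Trim14 and Brdt.

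Among those lower in shJun, Ift52, a subunit of the intraflagellar transport complex of cilia, had the smallest p of all genes. It had 2 and 6 UMIs in the shJun animals and 462 and 492 in the shNT animals, or 1.11 and 0.863 against 129 and 109 CPM (log2 difference -6.91 ± 1.14 SE, edgeR unadjusted p = 0.000253). One well gave 84.8% of the UMIs of shNT 1 and another 95.3% of those of shNT 2, while the number of wells with any UMI was 2, 6, 5 and 8. Ripk1, a kinase of cell death and NF-kB signalling, had 1.11 and 0.719 against 84.6 and 83.7 CPM (-6.55 ± 1.24), with 71.9 and 76.5% from single wells. Nf1, a negative regulator of RAS, had 7.23 and 12.8 against 359 and 88.2 CPM (-4.46 ± 1.01), with 97.9% of the UMIs of shNT 1 in 1 well. The other 9 were Meg3, Cep41, B9d2, Zmynd15, Sirt6, Siglecg, Arv1, Vdr and Tex9.

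**Figure D4:**
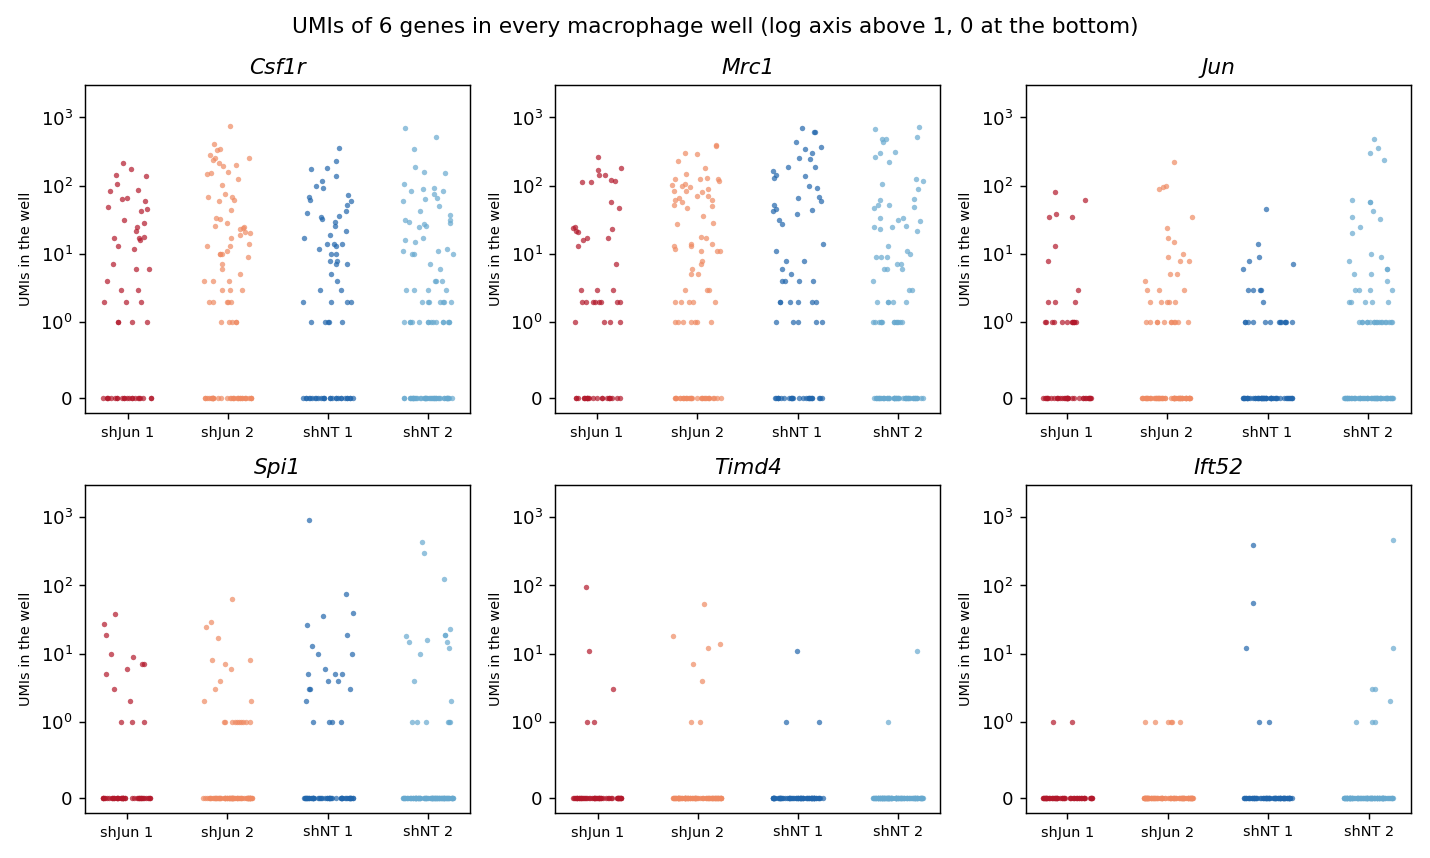
UMIs of Csf1r, Mrc1, Jun, Spi1, Timd4 and Ift52 in every macrophage well of the 4 animals; each point is 1 well, the y axis is logarithmic above 1 and shows 0 at the bottom. Csf1r and Mrc1 are spread over many wells of each animal, while 1 well holds 84.8 and 95.3% of the Ift52 UMIs of the shNT animals.

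Genes with roles in macrophages were read in 15 lists of 180 members in all, of which 160 passed the filter on low counts. None passed the adjusted threshold in edgeR, and 8 of the 160 (5%) had an unadjusted p under 0.05, beside 5.19% of all genes. The animals did not overlap in 52 of them, 20 higher and 32 lower in shJun, or 32.5% beside 31.9% of all genes. Their median log2 difference was -0.14, beside -0.01 over all genes. As a whole the members thus stood at the background share by both counts. The counts below are for members that passed the filter. Each is to be read beside the 15.7% of all genes that were higher and the 16.2% that were lower without overlap.

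**Figure D5:**
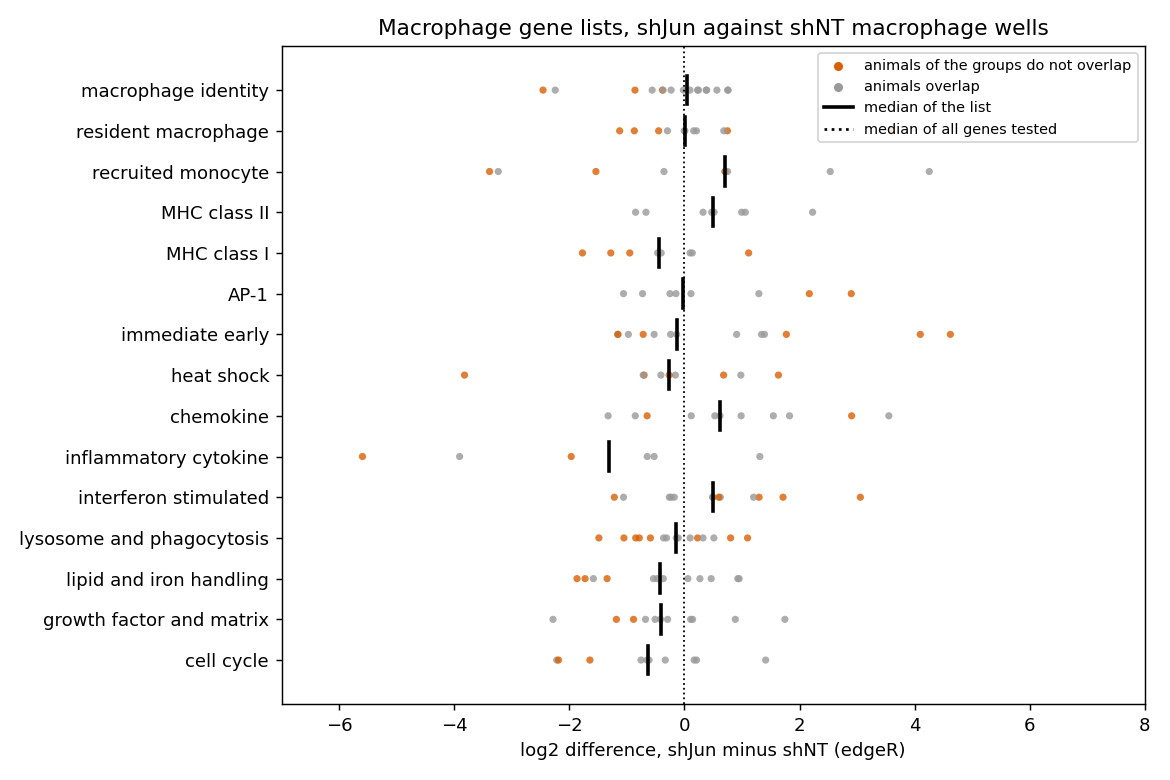
Log2 difference, shJun minus shNT (x axis, edgeR), of every tested member of the 15 macrophage lists (rows), with members whose animals do not overlap in orange, others in grey, the median of each list as a black bar and the median of all genes tested as a dotted line at -0.01. Single members spread from -5.60 (Nlrp3) to 4.62 (Nr4a2), and list medians lie between -1.31 (inflammatory cytokine) and 0.70 (recruited monocyte).

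Of the 16 identity genes, 0 were higher and 3 lower in shJun without overlap, with a median log2 difference of 0.04. Spi1, which encodes PU.1, the master transcription factor of the myeloid lineage (chr2:91082390-91115756), stood at 75.6 and 26.5 TMM-scaled CPM in the shJun animals and 334 and 224 in the shNT animals (log2 difference -2.46 ± 0.79 SE, edgeR unadjusted p = 0.0140, adjusted p = 0.908). Both shJun animals were below both shNT animals, yet wells with a UMI numbered 14, 22, 23 and 20, and 1 well of shNT 1 gave 77.1% of its Spi1 UMIs. Csf1r, with 841 and 712 against 604 and 722 CPM, overlapped between the groups (0.23 ± 0.50). Trem2, a lipid receptor, had 55.0 and 25.7 against 49.3 and 333 CPM (-2.25 ± 1.03, unadjusted p = 0.0593), high in shNT 2 and low in the other 3, and its log2 difference was 1.01 in sums per animal and chip. Laptm5 and Mertk were the other members lower without overlap, by -0.38 ± 0.50 and -0.86 ± 0.96. The identity genes as a group did not separate the hairpins.

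Resident macrophage genes had no common direction: 2 of 11 were higher and 3 lower in shJun without overlap, and the median was 0.01. Timd4, a receptor for phosphatidylserine on dying cells (chr11:46810800-46844332), had 61.2 and 15.8 against 3.64 and 2.65 CPM (3.60 ± 1.39, edgeR unadjusted p = 0.0311). Its wells numbered only 5, 8, 3 and 2, and 1 well gave 85.5% of the UMIs of shJun 1. Cbr2, a carbonyl reductase, was the other member higher without overlap, at 349 and 398 against 292 and 153 CPM (0.75 ± 0.61). Mrc1, the mannose receptor CD206 (chr2:14229392-14332057), had 936 and 590 against 1559 and 1230 CPM (-0.87 ± 0.50, unadjusted p = 0.117). F13a1, the A chain of clotting factor XIII (chr13:36867178-37050244), had 468 and 812 against 1484 and 1313 CPM (-1.13 ± 0.51, unadjusted p = 0.0567). Pf4, platelet factor 4, which resident macrophages also express, had 2194 and 2111 against 2793 and 3082 CPM (-0.45 ± 0.42). These 3 were lower in both shJun animals and, unlike the 24 genes above, were found in 27 to 67 wells of each animal, with at most 35.5% of the UMIs in 1 well. Mrc1 was not lower by the count of wells, where the log2 difference was 0.08, and F13a1 was not lower in sums per animal and chip, where it was 0.13. Folr2 and Lyve1, at 113, 310, 230 and 194 CPM and at 350, 248, 264 and 108 CPM, overlapped.

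Genes of recruited monocytes were few in UMIs. Of 9, 1 was higher and 2 lower without overlap, with a median of 0.70. Ccr2 had 103 and 73.9 against 154 and 71.8 CPM, in 5, 7, 11 and 10 wells (-0.36 ± 0.79), and overlapped. Ly6c2, a surface marker of inflammatory monocytes, had 127 and 161 against 65.3 and 112 CPM (0.71 ± 0.74), higher in both shJun animals. S100a4, a calcium binding protein, had 28.4 and 18.8 against 58.8 and 78.0 CPM (-1.54 ± 0.95), and Hp, haptoglobin, 13.9 and 2.16 against 75.6 and 88.2 CPM (-3.39 ± 1.22, unadjusted p = 0.0228). Hp was found in 1, 10, 4 and 26 wells. Both S100a4 and Hp were highest in shNT 2. Neutrophils share several of these products, but the neutrophil genes took 0.161% of UMIs in shNT 1 and 0.00477% in shNT 2. The part of neutrophil RNA was not tested. The members of this list had no common direction.

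Antigen presentation genes overlapped for the most part. None of the 8 MHC class II genes separated the groups, and their median was 0.49. H2-Aa, the class II alpha chain, had 2073 and 1288 against 838 and 1514 CPM (0.51 ± 0.52), and H2-Ab1, the beta chain, 2426 and 2161 against 1102 and 2564 CPM (0.32 ± 0.52). For both, shNT 1 was the lowest animal and the other 3 were not ordered by hairpin. Of 8 MHC class I genes 1 was higher and 3 lower without overlap, with a median of -0.43. Tapbp, which loads peptide onto class I molecules, had 163 and 150 against 569 and 190 CPM (-1.28 ± 0.70), and B2m, the shared light chain, 2812 and 2371 against 2217 and 2497 CPM (0.14 ± 0.42).

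Partners and early response genes of AP-1 gave no common direction either. Of 8 AP-1 genes 2 were higher and 0 lower without overlap, with a median of -0.02. Fos, the partner of Jun (chr12:85473890-85477273), had 280 and 133 against 87.7 and 3.98 CPM (2.17 ± 1.24, edgeR unadjusted p = 0.117), with 1 well giving 65.9% of the UMIs of shJun 2. Batf3, which cross-presenting dendritic cells depend on, had 32.2 and 158 against 18.5 and 7.07 CPM (2.90 ± 1.16, unadjusted p = 0.0352), in 6, 10, 4 and 5 wells. The 5 dendritic cell genes had 130, 392, 28 and 203 UMIs in the same order, and their part was not tested. Junb, at 126, 18.8, 65.6 and 106 CPM, and Jund, at 73.9, 29.2, 34.7 and 60.3 CPM, overlapped. Fosl1 had no UMI in any animal, which allows up to 1.85, 0.434, 0.851 and 0.562 CPM at 3 counts.

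Of 13 immediate early genes 3 were higher and 2 lower without overlap, with a median of -0.14. Ier2 had 184 and 173 against 31.7 and 72.9 CPM (1.77 ± 0.79, edgeR unadjusted p = 0.0529), yet 89.5% of the UMIs of shJun 2 came from 1 well. Nr4a2, a nuclear receptor, rested on 1 or 2 wells in each animal, with 38, 81, 3 and 2 UMIs (unadjusted p = 0.0178). Egr1, with 158, 30.2, 60.2 and 14.1 CPM, and Klf6, with 277, 217, 256 and 327 CPM, overlapped. Of 9 heat shock genes 2 were higher and 3 lower, with a median of -0.27. Hspa1a, an inducible chaperone, had 4, 10, 25 and 201 UMIs (unadjusted p = 0.0406), and 99.5% of the 201 came from 1 well. Hsp90ab1, a constitutive chaperone found in nearly every well, had 1944 and 1768 against 2173 and 2293 CPM (-0.27 ± 0.43).

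Of 11 chemokines 1 was higher and 1 lower without overlap, with a median of 0.62. Ccl12, a monocyte attractant (chr11:82101845-82103400), had 75.6 and 1410 against 101 and 25.6 CPM (3.55 ± 1.27, edgeR unadjusted p = 0.0223). Only shJun 2 was high, and shJun 1 lay between the shNT animals. Ccl6 had 678 and 3504 against 929 and 1185 CPM (0.98 ± 0.72), again high in shJun 2 alone, and its log2 difference was -0.65 without that animal. Ccl9, the member lower without overlap, had 80.6 and 138 against 162 and 182 CPM (-0.65 ± 0.70). Ccl7, the one higher without overlap, had 767, 1079, 274 and 4 UMIs, with 99.7% of those of shJun 1 in 1 well.

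Only 6 of 14 inflammatory cytokine and inflammasome genes passed the filter, of which 2 were lower without overlap, with a median of -1.31. Nlrp3, the inflammasome sensor, had 0, 2, 65 and 16 UMIs (edgeR unadjusted p = 0.0173), and Nfkbiz 46, 43, 196 and 308 UMIs (-1.97 ± 1.12 on the log2 scale). Il1b had 8, 1, 227 and 1 UMIs, and its 227 lay in 8 wells of shNT 1, the animal with the most neutrophil RNA. Tnf and Il6 had 1 UMI each over all 4 animals, and Il10 had none.

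Of 13 interferon stimulated genes 5 were higher in shJun without overlap, beside 15.7% of all genes, and 1 was lower, beside 16.2%, with a median of 0.49. Ifitm3, a membrane protein that restricts virus entry, had 2262 and 1785 against 1330 and 1542 CPM (0.49 ± 0.45), and Ifi27l2a 1583 and 2112 against 1450 and 992 CPM (0.60 ± 0.47). Both were spread over many wells, with at most 27.7% of UMIs in 1. Irf7, a transcription factor of interferon production, had 13.3 and 23.7 against 7.56 and 3.76 CPM (1.71 ± 1.33), and Ifit3 48.9 and 13.4 against 2.52 and 4.86 CPM (3.06 ± 1.41, edgeR unadjusted p = 0.0601). Ifit1 had the opposite order, with 16.7 and 18.5 against 31.1 and 51.0 CPM (-1.22 ± 1.07). No member reached an unadjusted p of 0.05.

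Lysosome and phagocytosis genes split, with 3 of 15 higher and 5 lower without overlap and a median of -0.14. Axl, a receptor for dying cells, had 206 and 330 against 96.9 and 154 CPM (1.10 ± 0.67), and Lgmn, a lysosomal protease, 166 and 227 against 115 and 110 CPM (0.80 ± 0.67). Npc2, which carries cholesterol out of lysosomes, had 357 and 428 against 530 and 883 CPM (-0.85 ± 0.55), Ctsd, the protease cathepsin D, 213 and 360 against 564 and 425 CPM (-0.79 ± 0.58), and Grn, progranulin, 489 and 387 against 601 and 719 CPM (-0.59 ± 0.52). None of the 15 had an unadjusted p under 0.05.

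Of 12 lipid and iron handling genes 0 were higher and 3 lower without overlap, with a median of -0.42. Slc40a1, the iron exporter ferroportin, had 38.9 and 37.1 against 42.3 and 209 CPM (-1.73 ± 0.98), and Fabp5, a fatty acid carrier, 30.6 and 4.46 against 61.3 and 65.0 CPM (-1.87 ± 1.18). For Slc40a1 only shNT 2 was high, the animal with the most globin RNA, at 15.1% of UMIs. Apoe, the lipid carrier of macrophages, had 12026 and 21490 against 13317 and 35411 CPM (-0.54 ± 0.52) and overlapped. The 11 growth factor and matrix genes had 0 higher and 2 lower (median -0.42), and the 10 cell cycle genes 0 and 2 (median -0.63). Igf1, which resident macrophages secrete, stood at 431, 298, 160 and 471 CPM, and Mki67, a marker of cycling cells, at 36.7, 120, 162 and 36.0 CPM in 7, 20, 12 and 11 wells, with both groups overlapping.

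Promoter sequences were searched because the knocked down gene encodes a DNA-binding protein. The AP-1 element was written as TGANTCA, and the related CRE-like element, which Jun itself holds, as TGANNTCA. Both read the same on either strand, a match to one cannot start at the position of a match to the other, and a window ran from 250 bases before to 50 bases after a start site in RefSeq (GRCm38.p6). TGANTCA was in the window of 2425 of 27025 genes (8.97%) and TGANNTCA in 4304 (15.9%). Among macrophage list members with a promoter entry, TGANTCA was in 2 of 16 that were higher in shJun without overlap, in 1 of 21 that were lower and in 12 of 84 that overlapped. Among the 24 genes named above it was in 1 of 19 with an entry, Brdt. These 4 are printed, with the element in capitals, since they are the genes whose animals did not overlap and whose window held it. Ifitm3 is chr7:141010818-141010874 on the minus strand, Ifit3 chr19:34583448-34583504 on the plus strand, Ccl9 chr11:83578658-83578714 on the minus strand and Brdt chr5:107331052-107331108 on the plus strand.
Ifitm3: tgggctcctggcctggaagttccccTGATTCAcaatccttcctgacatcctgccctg
Ifit3: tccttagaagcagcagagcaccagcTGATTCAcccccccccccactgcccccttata
Ccl9: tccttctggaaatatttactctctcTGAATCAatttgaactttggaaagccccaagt
Brdt: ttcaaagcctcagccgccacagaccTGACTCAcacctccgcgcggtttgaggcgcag

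None of the 10 AP-1 and 11 immediate early genes with an entry held TGANTCA, while TGANNTCA was in 3 and 4 of them, Jun among the 3. A match is only a stretch of letters, and its use in these cells was not tested.

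Whether the hairpin difference in macrophages differed from that in other cells of the same hearts was tested directly. Of 17350 genes, 0 (0%) passed the adjusted threshold in edgeR for macrophages against endothelial wells, with 1036 (5.97%) at an unadjusted p under 0.05, and 0 (0%) against fibroblast wells, with 1056 (6.09%). DESeq2 called 230 (1.33%) and 270 (1.56%). Col14a1, among the 5 genes with the smallest p against endothelial wells, stood at 193 and 329 against 26.4 and 15 CPM (unscaled) in macrophage wells and at 22.5 and 17.7 against 37.7 and 17.8 CPM in endothelial wells (difference of log2 differences 3.95 ± 0.81 SE, edgeR unadjusted p = 0.000571). Trim30a, an interferon stimulated gene, stood at 123 and 39.1 against 137 and 130 CPM in macrophage wells and at 349 and 153 against 46.4 and 68.1 CPM in endothelial wells (-3.16 ± 0.66, unadjusted p = 0.000628). Zbp1, a sensor of nucleic acids, was among the 5 in both tests, with 6.77 and 8.25 against 34.6 and 30.1 CPM in macrophage wells, 14.4 and 52.4 against 0.161 and 0.392 CPM in endothelial wells and 11.4 and 55.9 against 0.761 and 0.176 CPM in fibroblast wells. Zbp1 was thus lower in shJun macrophage wells and higher in shJun endothelial and fibroblast wells, without overlap in any of the 3 classes. Its differences of log2 differences were -8.73 ± 1.57 against endothelial and -8.15 ± 1.57 against fibroblast wells (SE, edgeR, adjusted p = 0.830 and 0.806). Genes were named here by this difference and only without overlap in macrophage wells, so neither trait is a separate result. The other genes named by these tests were Fndc1 and Tex9 against endothelial wells and Pik3r5, Zscan22, Ripk1 and Meg3 against fibroblast wells. No gene difference is therefore called particular to macrophages.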

How the data were processed

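The authors deposited UMI counts for each gene in each well, not normalized, from reads aligned to mm10 with STAR 2.5.2b and assigned with featureCounts (Subread 1.4.6-p1) per the submitters' processing notes. The well reports, which the authors deposited with counts per well, gave the hairpin, animal and fraction. Gene symbols matched 33980 of 34889 gene IDs (GENCODE, mm10), and 35 mitochondrial genes, spike-ins and the reporter were left out. Wells were chosen by the marker rule in Python 3.11.15 and their UMIs summed per animal, since wells are not replicates. The test was that of edgeR 4.0.16 under R 4.3.3 (TMM, filterByExpr, glmQLFit, glmQLFTest, Benjamini-Hochberg threshold 0.05), with DESeq2 1.42.0 as an alternative. The difference between classes was tested on 12 sums with animal, class and class by hairpin terms. The 18 genes of the rule are given as values only and not read as tests. No doublet caller was run, since the study's methods describe imaging of wells.

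The members and gene lists were chosen with earlier results of these data known. Named genes were, per list, at most 6 with the smallest p or a defining role. For higher and lower genes, the 12 of lowest p that lay outside marker lists were taken. Their animals did not overlap, and each animal of the higher group had at least 10 UMIs. For each class difference, the 5 with the smallest p were taken under the same conditions in macrophage wells. Animals of the same number shared chips, which pairs them; their deviations from the group mean had a Pearson r of 0.03 across 11954 genes. The 2 animals per group limit the precision. The p-values of edgeR and DESeq2 rest on a spread between these animals that was estimated with information shared across genes. They do not measure each gene's own spread alone. The edgeR fit of macrophages and that of macrophages against endothelial wells were also run on simulated counts. The other fits were not. A list member that met the rule for named genes is not reported here.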

Additional observations from a re-analysis of the deposited data

How the results depend on the processing

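Each group had 2 animals, and for 75.4% of the genes tested 1 well gave more than 50% of the UMIs of an animal. The count of 0 genes in the comparison of macrophages became 80 (25 higher, 55 lower) without the filter on low counts, 3 with the replicate block and 130 in DESeq2, and leaving out 1 animal gave 0 to 55. The other alternatives gave 0: a marker threshold of 0.6%, wells with a C1q UMI, at least 1000 genes, UMIs within 2 SD, wells of at most 2% cardiomyocyte genes, at most 5000 UMIs per well, DESeq2 size factors, sums per chip and, chosen after seeing the data, the NCM fraction alone, no wells over 10% globin and the count of wells. DESeq2 and the fit without a filter shared 27 genes, 20.8% of the first and 33.8% of the second. For the class differences the counts were 26 without the filter and 230 in DESeq2 against endothelial wells, and 38 and 270 against fibroblast wells, and 0 when an animal was left out. The causes were not tested.

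Jun was 0.13 with the replicate block, and between -1.61 and 2.02 with 1 animal left out. The difference in share ran from -1.23 to 0.563 points with 1 animal left out. Of 502 alternatives for 32 single genes, 452 kept the direction without passing the threshold, 46 kept it and passed, and 4 turned: Ccl6 to -0.65 without shJun animal 2 (up to 1.72 without shJun animal 1), Trem2 to 1.01 and F13a1 to 0.13 in sums per chip, and Mrc1 to 0.080 by the count of wells. Besides the change from 0 to 3 genes and the sign of Jun, the block changed no call named in the text.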

Other observations

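P28 hearts of the same strain without a hairpin gave macrophage wells by the same rule. Of their chips 4 held at least 50 of these wells, with 65, 465, 513 and 316 wells. Jun stood there at 619, 461, 482 and 275 CPM without TMM scaling, whereas the 4 animals with a hairpin stood at 180, 98.3, 33.2 and 338 CPM. Fos stood there at 1152, 814, 753 and 188 CPM, also without TMM scaling. In the animals with a hairpin Fos stood at 280, 133, 87.7 and 3.98 TMM-scaled CPM, so the scales of the Fos values differ. The macrophage wells of those chips held 703001, 4837092, 7838830 and 2625700 UMIs in all. Spi1 stood at 112, 137, 131 and 87.6 CPM and Timd4 at 11.4, 43.8, 50.1 and 31.6 CPM on those chips. Hearts with and without a hairpin were on different chips and were not compared by a test.

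Alb, the albumin made by liver, was found in 0, 41, 0 and 58 macrophage wells of shJun 1, shJun 2, shNT 1 and shNT 2, at 0, 16.2, 0 and 1470 TMM-scaled CPM. It was thus present in both animals numbered 2, which shared chips, and had no UMI in the animals numbered 1. The 3 UMIs that a count of 0 allows correspond to 1.85 CPM in shJun 1 and 0.851 CPM in shNT 1.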
